A study of Mus musculus with 5 samples.

Results

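The Wnt signalling genes described here were the 54 protein-coding genes of the mouse annotation whose symbols are Wnt or Fzd followed by a digit, together with named co-receptors, regulators, inhibitors, intracellular components and nuclear factors of the pathway, out of 21951 protein-coding genes. They were chosen by name and not by any measured value, although earlier results of these data were known. By role they comprised 19 Wnt ligands, 12 receptors (10 Frizzled proteins, Lrp5 and Lrp6), 4 surface regulators, 4 secreted inhibitors, 11 intracellular components and 4 nuclear factors of the Tcf and Lef family.

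Wnt ligands are secreted lipid-modified proteins that bind Frizzled receptors and the co-receptors Lrp5 and Lrp6 on the receiving cell. Without ligand, a cytoplasmic complex of Axin, Apc, Gsk3 and casein kinase marks beta-catenin (Ctnnb1) for degradation. When Dishevelled proteins relay the signal and block that complex, beta-catenin enters the nucleus and acts with Tcf and Lef factors on target genes. In the embryo, Wnt1 is made at the boundary of midbrain and hindbrain from which the cerebellum derives, and activated Wnt signalling defines a molecular subgroup of human medulloblastoma that is distinct from the Myc-driven one.

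The study used MG tumors, a mouse model of Myc-driven medulloblastoma, and asked where the repressor Gfi1 and the histone demethylase Lsd1, which Gfi1 recruits through its SNAG domain, are found on chromatin. The labels give the strain as C57BL/6. Prominin1+ neural stem cells from the cerebellum of pups in the first postnatal week were infected with retroviruses carrying a stabilised Myc (MycT58A) and Gfi1, and the cells were transplanted into NSG host mice of either sex. Both genes were therefore driven by viral vectors in every library, no tumor without them was compared, and a tumor can also hold host cells. Chromatin of the same 2 tumors, 39 and 41, was precipitated once with an antibody to Gfi1 and once with one to Lsd1, so that there were 4 libraries, and the input in the sample list came from pooled tumors carrying Myc and Gfi1b (MGB) and has no peak list.

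The 4 deposited lists held 36836 (Gfi1, tumor 39), 25078 (Gfi1, tumor 41), 30367 (Lsd1, tumor 39) and 33213 (Lsd1, tumor 41) peaks, with median widths from 1443 to 1765 bp. They give a position and a score for each peak and no read counts, so that the depth behind a single peak is unknown and no interval for it can be given. A gene was said to have a peak when a peak came within 1 kb of any of its annotated transcription start sites (TSSs), and its strength was read as the percentile of the score within its own list, using the highest-scoring peak of the gene. A percentile near 100 marks one of the strongest sites of a library. Scores of 3100 or more, the top of the score's range, were treated as ties, which set the highest possible percentile at 98.8 for Gfi1 in tumor 39 and 99.3 for Lsd1 in tumor 41. Percentiles of the 4 libraries are given in the order Gfi1 in tumors 39 and 41, then Lsd1 in tumors 39 and 41. Over all protein-coding genes with a peak, the median percentile was 82.5, 77.4, 79.0 and 81.0. Over the Wnt signalling genes with a peak it was 82.3, 64.5, 76.7 and 80.7. A peak is evidence of the factor at a site and not a measure of the gene's expression. Of the markers looked up, the neural stem cell gene Sox2 had a peak in all 4 libraries, Nes and Prom1 in 3 and Msi1 in 2. The endothelial genes Pecam1, Cdh5 and Tek had none and Cldn5 had one in 2 libraries, and the leukocyte genes Ptprc, Itgam and Csf1r had none, whereas Cd68, a macrophage gene, had one in all 4.

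A peak was found at most Wnt signalling genes, and their number followed the library rather than the factor. Gfi1 in tumor 39 reached 52 of the 54 genes (96.3%, against 65.0% of all protein-coding genes) and Gfi1 in tumor 41 reached 38 (70.4%, against 54.2%). Lsd1 in tumor 39 reached 36 (66.7%, against 58.5%) and Lsd1 in tumor 41 reached 46 (85.2%, against 61.7%). Both Gfi1 libraries had a peak at 38 genes (70.4%, against 53.9%) and both Lsd1 libraries at 36 (66.7%, against 57.6%). Each of the 4 libraries had a peak at 35 of the 54 genes (64.8%, against 53.1% of protein-coding genes), and 2 genes, Wnt8a and Dkk1, had none in any library (3.70%, against 33.7%). The peaks of a gene need not be at the same site. At Wnt5b, Wnt7b, Wnt9a, Wnt11 and Ctnnb1 the peaks used in the 4 libraries did not all overlap. With each list cut to its 25078 highest-scoring peaks, the length of the shortest, the counts were 50, 38, 36 and 41, and 35 genes had a peak in all 4.

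**Figure D1:**
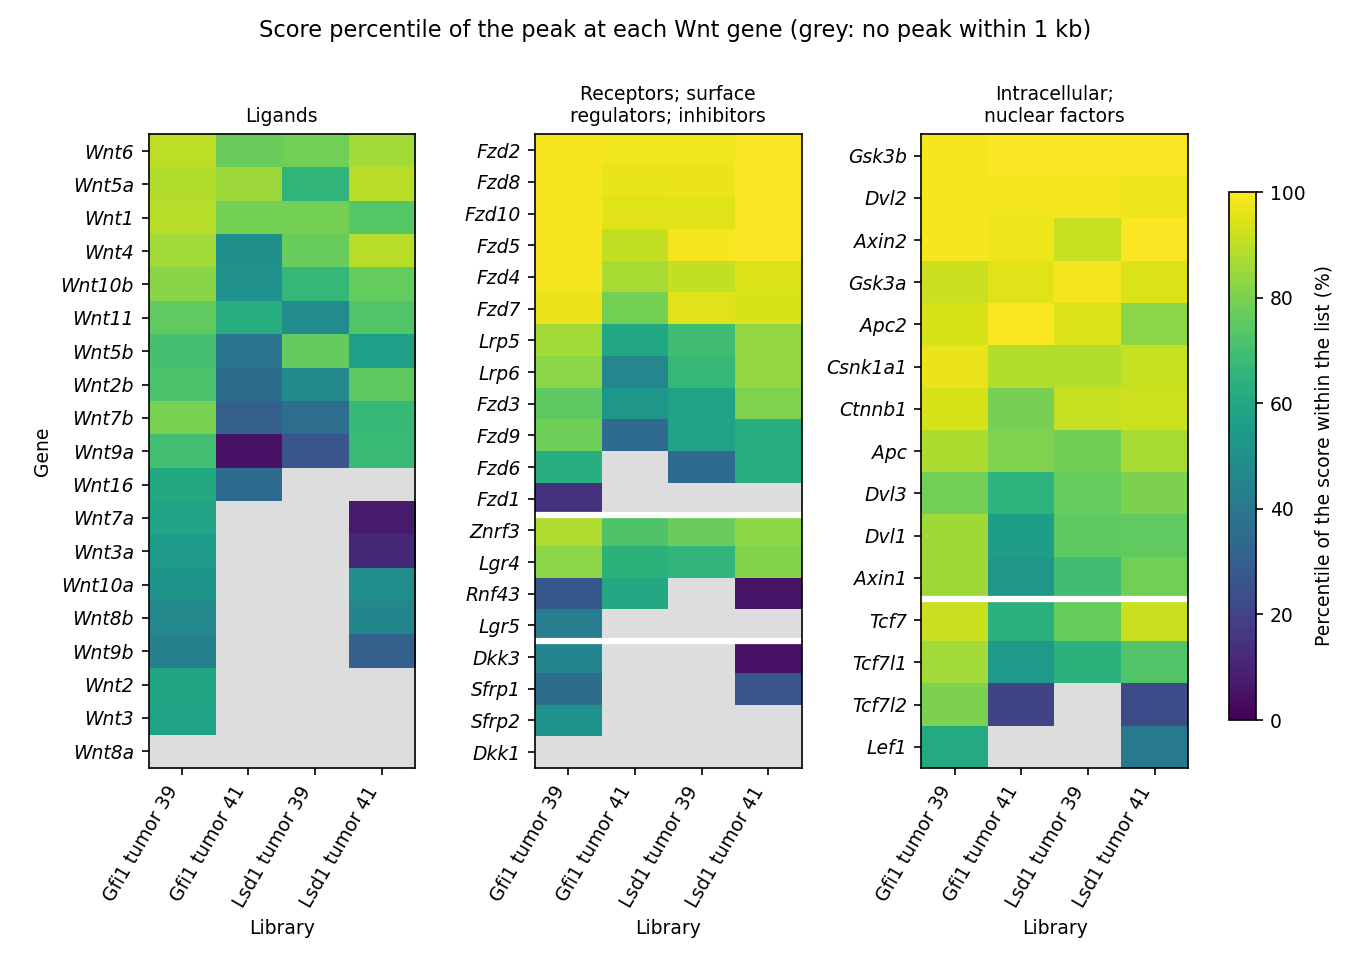
Score percentile (colour, %) of the strongest peak within 1 kb of a TSS for each of the 54 genes (rows, by role) in each of the 4 libraries (columns), with grey where no peak was found. The 6 Frizzled genes from Fzd2 to Fzd7 and the 6 intracellular genes from Gsk3b to Csnk1a1 have mean percentiles of 90 or more, no ligand does, and the grey cells lie mostly in the columns of Gfi1 tumor 41 and Lsd1 tumor 39.

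Short stretches of sequence just upstream of a TSS are shown for the strongest gene of a role for which RefSeq's promoter table (GRCm38.p6) held an entry with 100 bases free of annotated exons, and for 2 genes at the other end of the range, because a peak in all 4 libraries was found at 84.6% of all CpG-rich protein-coding genes and at 18.3% of CpG-poor ones. Each stretch is written 5′ to 3′ on the strand of the gene, with CpG dinucleotides in capitals.
Wnt6, a ligand, chr1:74771792-74771891 on the plus strand, wholly under a peak in 3 libraries and partly in Gfi1 tumor 41: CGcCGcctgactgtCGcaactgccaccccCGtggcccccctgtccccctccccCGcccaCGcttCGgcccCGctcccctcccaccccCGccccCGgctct
Fzd7, a receptor, chr1:59482047-59482146 on the plus strand, under a peak in all 4 libraries: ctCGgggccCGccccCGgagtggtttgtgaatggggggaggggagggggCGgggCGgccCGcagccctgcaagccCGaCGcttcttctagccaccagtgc
Dvl2, an intracellular relay, chr11:70000492-70000591 on the plus strand, under a peak in all 4 libraries: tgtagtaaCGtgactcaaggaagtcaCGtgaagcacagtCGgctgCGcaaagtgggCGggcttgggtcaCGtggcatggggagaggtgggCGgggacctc
Tcf7, a nuclear factor, chr11:52282596-52282695 on the minus strand, under a peak in all 4 libraries: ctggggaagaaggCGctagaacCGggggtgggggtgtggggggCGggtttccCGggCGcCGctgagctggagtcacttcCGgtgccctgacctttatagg
Fzd1, a receptor, chr5:4758217-4758316 on the minus strand, under no peak: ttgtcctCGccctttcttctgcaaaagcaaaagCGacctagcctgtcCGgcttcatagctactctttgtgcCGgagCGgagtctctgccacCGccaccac
Wnt8b, a ligand, chr19:44493372-44493471 on the plus strand, under no peak: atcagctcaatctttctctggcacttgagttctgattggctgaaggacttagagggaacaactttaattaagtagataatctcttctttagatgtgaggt
The 100 bases held 10 CpGs at Wnt6, 8 at Fzd7, 7 each at Dvl2 and Tcf7, 6 at Fzd1 and 0 at Wnt8b. The stretch of Fzd1 thus carried nearly as many CpGs as that of Dvl2 without a peak over it, and the peak counted for Fzd1 lay elsewhere within 1 kb of a TSS. The peaks counted for Wnt8b, which start at chr19:44510992 and chr19:44511024, lay by another of its TSSs. The Wnt8b stretch is therefore not the sequence at those peaks.

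The Frizzled genes fell into 2 separate sets. Fzd2, Fzd4, Fzd5, Fzd7, Fzd8 and Fzd10, the high set, had mean percentiles of 98.4, 92.8, 96.9, 91.4, 98.0 and 97.1 over the 4 libraries. The next were Fzd3 at 66.7 and Fzd9 at 58.4, and Fzd6 and Fzd1 lacked a peak in at least 1 library. No other role showed both ends in this way, with 6 of 10 genes among the strongest sites and 1 gene with a single weak peak.

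Fzd2, a receptor of the subfamily that also holds Fzd1 and Fzd7, had percentiles of 98.8, 97.9, 97.7 and 99.3. Fzd8 had 98.8, 96.7, 97.3 and 99.3. Fzd10 had 98.8, 95.3, 95.1 and 99.3. In tumor 39 the Gfi1 peak and in tumor 41 the Lsd1 peak of each of these 3 genes was at the top of the score's range, which 910 and 488 peaks reached. Fzd5, the closest relative of Fzd8, had 98.8, 91.0, 98.6 and 99.3. Fzd4, the receptor for norrin in the retinal vasculature, had 98.8, 86.8, 90.9 and 94.9, and Fzd7, known from neural and intestinal stem cells, had 97.2, 79.2, 95.2 and 93.9. The lowest value of Fzd4, Fzd5, Fzd7 and Fzd8 was the one of Gfi1 in tumor 41.

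Fzd3 and Fzd6, which form a subfamily known for planar cell polarity and axon growth, were lower. Fzd3 had percentiles of 75.2, 53.1, 57.5 and 80.9, and Fzd6 had 62.5 for Gfi1 in tumor 39 and 34.8 and 62.6 for Lsd1, with no peak for Gfi1 in tumor 41. Fzd9 had 77.7, 35.0, 58.5 and 62.4. Fzd1 had 1 peak, of Gfi1 in tumor 39, at percentile 14.6, and in the other 3 libraries the nearest peak lay 565 kb away. The subfamilies were thus not uniform, with Fzd2 and Fzd7 high and Fzd1 low, and Fzd4 and Fzd10 high and Fzd9 lower.

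The peaks at the high Frizzled set, which was defined by the scores of these same peaks, were wide except at Fzd4. Their 24 peaks measured from 2584 to 6785 bp with a median of 4726 bp, against 1181 to 3515 bp and a median of 1964 bp for the 12 peaks at Fzd1, Fzd3, Fzd6 and Fzd9. At Fzd4 they measured 2584 to 2946 bp, within the range of 2109 to 3515 bp at Fzd9. Over all protein-coding genes with a peak, the median width of a gene's widest peak was 2103, 2208, 2532 and 2395 bp. In 6 Frizzled genes (Fzd1, Fzd2, Fzd7, Fzd8, Fzd9 and Fzd10) the coding transcript has 1 exon. A peak as wide as the median of the high set spans much of such a gene, and 4 of these 6 genes belonged to that set. Peaks covered 65.2% to 94.4% of the 3.66 kb Fzd2 gene, 72.2% to 92.4% of Fzd10 and 65.8% to 100% of Fzd9. Fzd9 shows that coverage of the whole gene did not go with a high score.

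**Figure D2:**
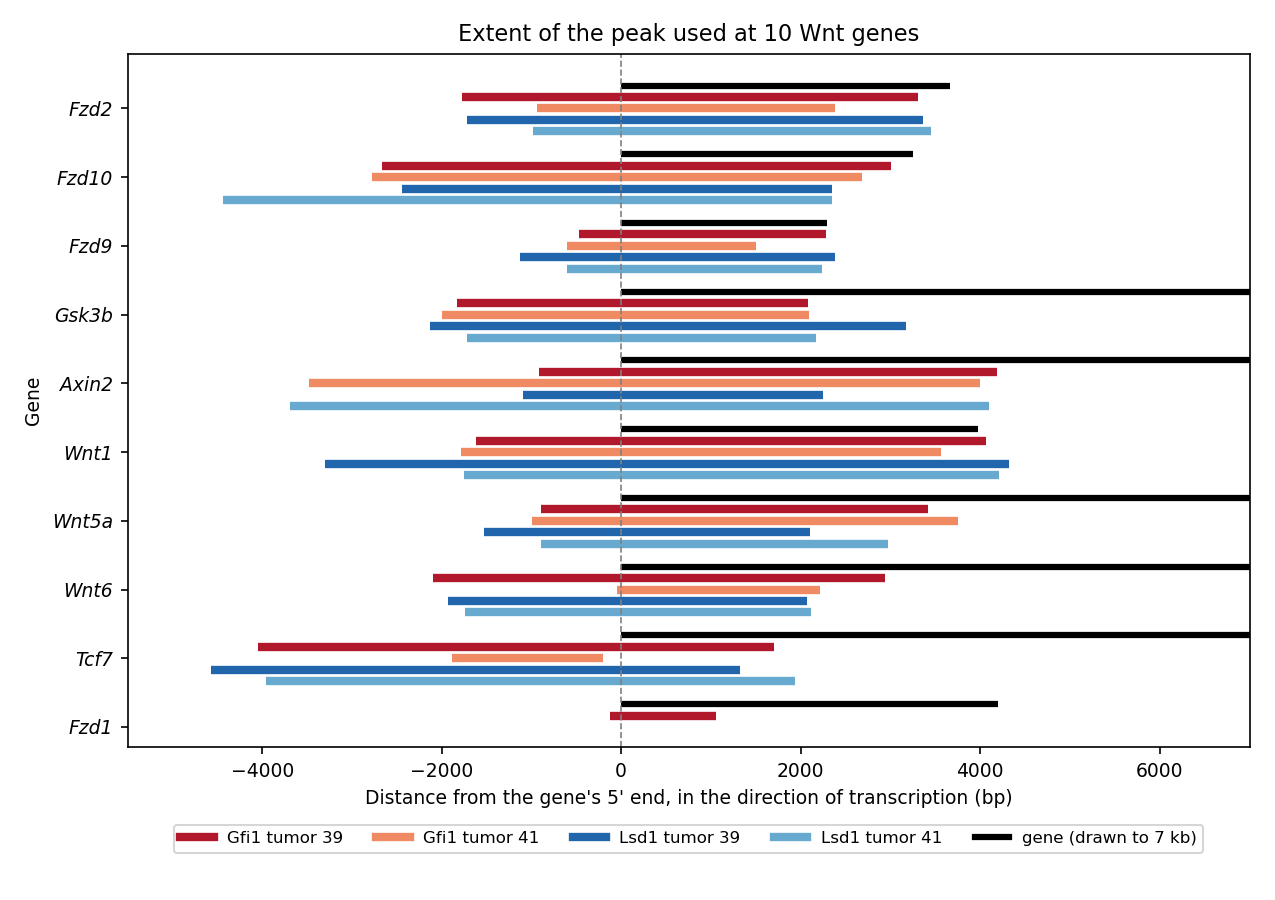
Extent of the peak used (coloured bars, one per library) around the 5′ end of 10 genes (black bars, drawn to at most 7 kb), with distance in bp along the direction of transcription. The peaks at Fzd2, Fzd10, Fzd9 and Wnt1 run over most or all of these short genes, those at Gsk3b and Axin2 stay at the start of long genes, and Fzd1 has a single narrow peak.

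The co-receptors Lrp5 and Lrp6, which pair with Frizzled to bind Wnt, had peaks in all 4 libraries. Their mean percentiles of 74.7 and 69.9 lay below the median of 82.0 over the 11653 protein-coding genes with a peak in all 4. Lrp5 had 86.0, 59.6, 69.2 and 84.0, and Lrp6 had 82.6, 46.4, 66.9 and 83.7. Both were highest for Gfi1 in tumor 39 and Lsd1 in tumor 41.

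The ligand genes seldom held the strongest peaks. Of 19 genes, 10 had a peak in all 4 libraries (52.6%, against 53.1% of protein-coding genes), namely Wnt1, Wnt2b, Wnt4, Wnt5a, Wnt5b, Wnt6, Wnt7b, Wnt9a, Wnt10b and Wnt11, and their mean percentiles ran from 42.1 at Wnt9a to 83.1 at Wnt6. In the upper 10% of the score the share of ligand genes with a peak was 1.32% ± 2.63 (SD, 4 libraries), against 16.4% ± 2.76 of all protein-coding genes, and the 1 such peak was that of Gfi1 at Wnt6 in tumor 39. Wnt6, Wnt5a and Wnt1 led.

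Wnt6, an epithelial and neural crest ligand, had percentiles of 90.2, 77.1, 78.9 and 86.2. Wnt5a, the main ligand of beta-catenin-independent signalling, had 88.6, 85.5, 65.5 and 89.6, and its lowest value was Lsd1 in tumor 39. It was the only ligand with a high-confidence peak, as defined below, and that of Gfi1 alone. Wnt1, the ligand of the midbrain-hindbrain boundary, had 89.2, 79.0, 79.0 and 73.6, under peaks of 5345 to 7620 bp that covered from 89.6% to 100% of its 3.98 kb. Wnt1 and Wnt10b lie 11.7 kb apart, Wnt6 and Wnt10a 6.19 kb, Wnt3a and Wnt9a 16.2 kb and Wnt3 and Wnt9b 24.3 kb, and in none of the 4 libraries did 1 peak serve both genes of a pair. At 3 of these 4 pairs (all but Wnt3 with Wnt9b), at least 1 of the neighbours had peaks in all 4 libraries.

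The other ligands were found in some libraries only. Wnt3a, Wnt7a, Wnt8b, Wnt9b and Wnt10a had a peak for Gfi1 in tumor 39 and Lsd1 in tumor 41 and in no other library, at percentiles of 43.7 to 58.4 for the former and 7.33 to 49.2 for the latter. Wnt2 and Wnt3 had one for Gfi1 in tumor 39 alone, at 59.3 and 58.2. Wnt16 was the 1 member of all 54 with peaks of both Gfi1 libraries, at 60.8 and 34.9, and of neither Lsd1 library. Wnt8a had no peak near its TSS, although a peak inside the gene lay 3.42 to 4.57 kb away in each library.

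The surface regulators control how many Frizzled receptors a cell shows. Znrf3, a ubiquitin ligase that removes Frizzled from the membrane, had percentiles of 88.3, 72.3, 77.3 and 83.1. Lgr4, a receptor for R-spondins, had 82.7, 64.4, 65.7 and 81.2. Their paralogs were weaker, since Rnf43 had 27.4, 60.5 and 5.66 and no peak for Lsd1 in tumor 39, and Lgr5, a stem cell marker of intestine and skin, had 42.1 for Gfi1 in tumor 39 alone.

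None of the 4 secreted inhibitors had a peak in all 4 libraries, and Gfi1 in tumor 41 and Lsd1 in tumor 39 reached none of them. Dkk3 had percentiles of 44.9 for Gfi1 in tumor 39 and 5.02 for Lsd1 in tumor 41, and Sfrp1, which binds Wnt through a Frizzled-like domain, had 35.2 and 26.5 in the same libraries. Sfrp2 had 51.1 for Gfi1 in tumor 39. Dkk1, which blocks Lrp5 and Lrp6 and is itself a known Wnt target, was far from any peak, the nearest lying 343 to 518 kb away.

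All 11 intracellular components had a peak in every library, against 53.1% of protein-coding genes and 84.6% of CpG-rich ones, and 10 of the 11 were CpG rich. A mean percentile of 90 or more was found at 6 of them and at 12 of the 54 genes (22.2%, against 14.6% of protein-coding genes). Gsk3b, the kinase that marks beta-catenin for degradation, had the highest mean percentile of the 54 genes, with 98.8, 99.6, 99.3 and 99.3, of which the values for Gfi1 in tumor 39 and Lsd1 in tumor 41 stood at the limit set by the ties. Its paralog Gsk3a had 91.9, 95.2, 98.4 and 94.8. Dvl2, a Dishevelled protein, had 98.8, 98.4, 98.7 and 97.4, whereas Dvl1 and Dvl3 had mean percentiles of 73.2 and 75.0. Axin2, a scaffold of the degradation complex and a widely used Wnt target gene, had 98.8, 97.6, 91.3 and 99.3, and Axin1, the constitutive scaffold, had 85.9, 52.8, 69.5 and 78.6. In both Dishevelled and Axin, then, 1 paralog stood among the strongest sites and the others did not.

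Apc2, the neural paralog of Apc, had percentiles of 94.1, 99.1, 94.4 and 82.6 under wide peaks of 8226 to 16133 bp, which covered 65.3% to 93.6% of the gene. Apc had 87.7, 80.5, 78.3 and 87.0. Csnk1a1, the casein kinase that primes beta-catenin, had 97.1, 88.4, 88.4 and 91.2, and Ctnnb1 itself had 93.8, 79.3, 91.4 and 92.4. Apc2 was the 1 gene of these 4 whose CpG content was low, as given below.

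The 2 nuclear factors with a peak in all 4 libraries had a median of 75.1 in mean percentile, against 91.3 for the 11 cytoplasmic genes, although Tcf7, at 81.0, exceeded Dvl1, Dvl3 and Axin1. Tcf7 had percentiles of 92.0, 63.6, 76.6 and 92.0, and Tcf7l1, mostly a repressor, had 86.1, 53.8, 64.1 and 73.0. Tcf7l2 had 80.3, 20.6 and 23.0 and no peak for Lsd1 in tumor 39, and Lef1, a target and effector of the pathway, had 61.1 for Gfi1 in tumor 39 and 40.5 for Lsd1 in tumor 41 alone.

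**Figure D3:**
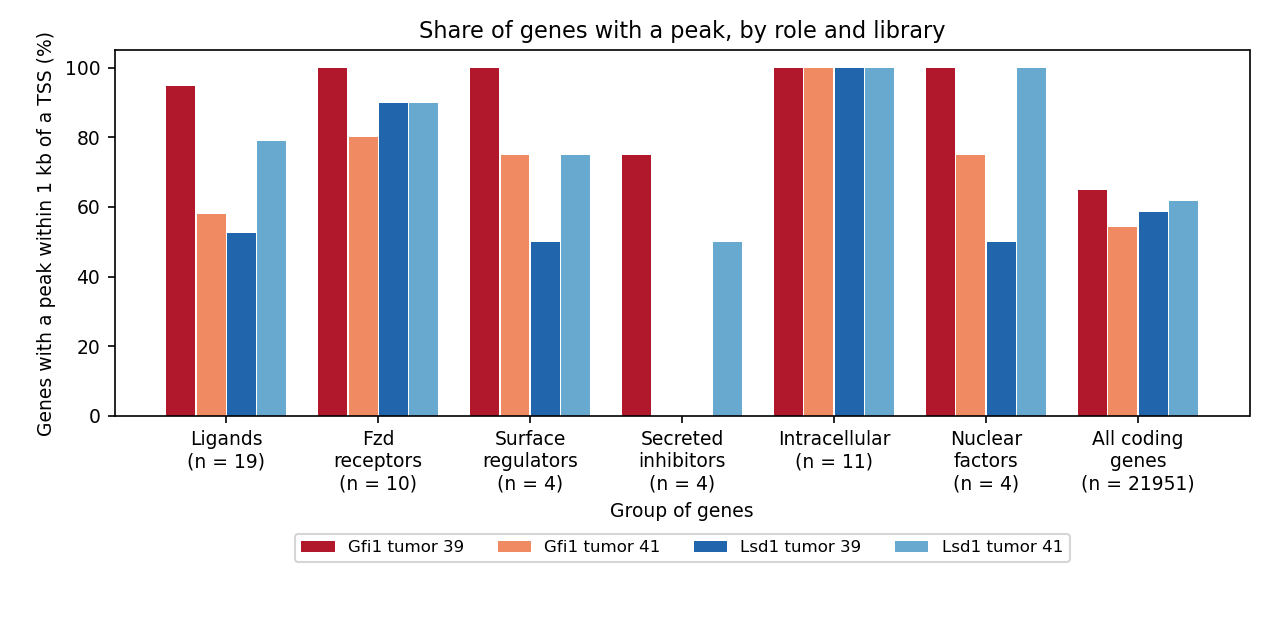
Share of genes (%) with a peak within 1 kb of a TSS, by role, in each of the 4 libraries (bars), beside all 21951 protein-coding genes. Every intracellular component has a peak in each library, the secreted inhibitors have none in Gfi1 tumor 41 or Lsd1 tumor 39, and the ligands range from 52.6% to 94.7%.

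Set against the 31 ligands and receptors, the 15 intracellular components with nuclear factors had a peak more often and a stronger one. The share with a peak was higher by 3.23, 25.6, 18.9 and 16.1 percentage points in the 4 libraries, on average by 16.0 ± 9.38 (SD, 4 libraries), and the median percentile of the genes with a peak was higher by 15.2, 20.3, 19.2 and 11.1, on average by 16.5 ± 4.17. Both differences had the same sign in 4 of 4 libraries. Genes are not replicates of a condition, and no test over them was made. For the share, Gfi1 in tumor 39 gave the smallest difference because 30 of 31 ligands and receptors had a peak there, and without it the mean was 20.2.

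The difference depended on which genes outside the cell were taken. Against the ligands alone, the intracellular and nuclear genes were higher by 23.9 percentage points ± 14.0 (SD, 4 libraries) in share and by 23.5 ± 4.42 in median percentile. Against the 10 Frizzled genes the share differed by 5.00 points ± 7.93, with both signs among the libraries, and the difference in median percentile was -6.06, -8.96, -6.74 and -7.83, on average -7.40 ± 1.27, the Frizzled genes being higher in 4 of 4 libraries. The Frizzled genes in turn exceeded the ligands by 18.9 points ± 14.1 in share and 30.9 ± 5.36 in median percentile. The 6 high Frizzled genes carried this value, since Fzd3 and Fzd9 had mean percentiles near or below the ligand median of 66.9, and Lrp5 and Lrp6, at 74.7 and 69.9, lay below Wnt6, Wnt5a and Wnt1.

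**Figure D4:**
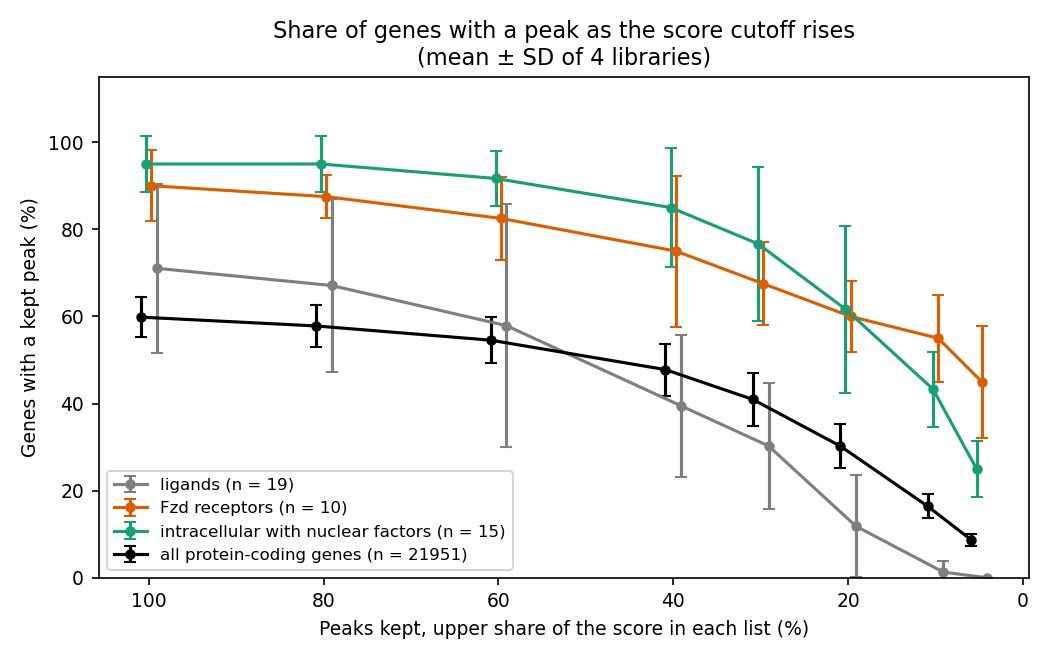
Share of genes (%) with a peak when only the upper part of each list by score is kept (x axis, %, stricter to the right), as mean and SD of 4 libraries, with points shifted slightly sideways for legibility. With 10% of the peaks kept, 55.0% of Frizzled genes, 43.3% of intracellular and nuclear genes, 16.4% of all protein-coding genes and 1.32% of ligands have a peak.

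High-confidence sites were taken by a rule built after the study's, as peaks of replicate 1 in the upper 20% of the list with 50% or more of their length in peaks of the upper 20% of replicate 2, with the score in place of enrichment. Because the lists carry no enrichment values, these sites are not the study's own sets, and with no score cutoff the counts below rose from 13 and 13 to 37 and 36. Of the 54 genes, 13 had such a site for Gfi1 (24.1%, against 22.9% of protein-coding genes) and 13 for Lsd1 (24.1%, against 25.9%). Both factors shared 11 of these (20.4%, against 19.5%), namely Fzd2, Fzd4, Fzd5, Fzd8, Fzd10, Dvl2, Axin2, Apc2, Gsk3a, Gsk3b and Csnk1a1. Wnt5a and Apc had a high-confidence site for Gfi1 alone, and Fzd7 and Ctnnb1 for Lsd1 alone. With no condition on overlap, 28, 13, 13 and 24 genes had a peak of the upper 20% in the 4 libraries (51.9%, 24.1%, 24.1% and 44.4%, against 36.2%, 24.6%, 28.1% and 32.1%), and 11 had one in all 4 (20.4%, against 19.9%). The shares of high-confidence sites and of genes in all 4 upper parts lay near the background, whereas those of Gfi1 in tumor 39 and Lsd1 in tumor 41 taken alone lay above it. The 15 genes with a high-confidence site of either factor (27.8% of the 54) were 6 of 10 Frizzled genes, 8 of 11 intracellular components and 1 of 19 ligands. Of the 21951 protein-coding genes, 5030 had a site for Gfi1, 5681 for Lsd1 and 4270 for both. The share with a site of either factor was not computed, but it cannot be lower than the 25.9% for Lsd1. The 27.8% is therefore no clear excess. Sites of both factors stood at 5 of 10 Frizzled genes, 6 of 11 intracellular components and 0 of 19 ligands, against 19.5% of protein-coding genes. Among CpG-rich protein-coding genes alone, 3959 of 11528 had sites of both factors. All 10 Frizzled genes, 10 of the 11 intracellular components and 14 of the 19 ligands were CpG rich.

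CpG content, which the choice of genes did not use, was high at most of them. Of the 54 genes, 44 had a CpG observed/expected ratio of 0.6 or more around a TSS (81.5%, against 52.5% of protein-coding genes). Among these 44, 33 had a peak in all 4 libraries (75.0%, against 84.6% of CpG-rich protein-coding genes), and among the 10 CpG-poor genes 2 did (20%, against 18.3%), Wnt1 with a ratio of 0.58 and Apc2 with 0.45. The 2 genes with no peak, Wnt8a and Dkk1, had ratios of 0.25 and 0.44. Library by library, peaks were found at 44, 34, 34 and 40 of the 44 CpG-rich genes (100%, 77.3%, 77.3% and 90.9%, against 97.1%, 85.3%, 89.6% and 93.6% of CpG-rich protein-coding genes), and at 8, 4, 2 and 6 of the 10 CpG-poor genes (against 29.5%, 19.9%, 24.1% and 26.4% of CpG-poor ones). The CpG-poor genes thus exceeded their background in 3 libraries and the CpG-rich genes lay below theirs in 3.

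Among the 35 genes with a peak in all 4 libraries, the CpG ratio and the mean percentile had a Spearman correlation of -0.388, against 0.338 over the 11653 protein-coding genes with a peak in all 4 libraries. Both are descriptions across genes, which share libraries and base composition. Fzd2, with a ratio of 0.68, and Apc2 had strong peaks, and Wnt9a, with 1.00, had percentiles of 69.8, 4.76, 26.6 and 67.2. With CpG-rich genes alone, the share with a peak differed between intracellular with nuclear genes and ligands with receptors by 10.0 points. The median number of annotated start sites was 6 for intracellular components and 2 for ligands, and with a single start site for each gene the difference in share was 14.2 points. The part of CpG content and start sites in the difference was not tested further.

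The motif AAATCAC, which holds the AATC core bound by Gfi1, and the TCF/LEF motif CTTTGAT were searched on both strands in RefSeq promoters of 300 bases. Promoters of 37 of the 54 genes matched by symbol, 50 in all. None of the 50 held AAATCAC, against 2.78% of 20150 protein-coding promoters, and 2 held CTTTGAT, of Wnt5b and Wnt11 (4.00%, against 3.16%). A missing match says only that these letters were not in the window.

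Peaks inside the genes but away from any TSS were found in all 4 libraries at 12 of the 54 genes (22.2%, against 12.2% of protein-coding genes), among them Wnt5b with 6 to 9 peaks, Axin2 with 3 to 7 and Lrp5 with 1 to 8. For 25 genes (46.3%, against 66.8%) no library had such a peak, Gsk3b and Lrp6 among them although they span 157 and 120 kb. Fzd4 was the 1 gene with the TSS of another protein-coding gene, Tmem135, within 1 kb (1.85%, against 14.6% of protein-coding genes). At the other 53 genes no second coding TSS lay within that distance.

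Gfi1 and Lsd1 could not be told apart by how many Wnt genes they reached. The share with a peak was 83.3% ± 18.3 for Gfi1 and 75.9% ± 13.1 for Lsd1 (SD, n = 2 tumors each), a difference of -7.41 points (exact permutation test over libraries, two-sided, p = 0.667, where 0.333 is the smallest value that 2 against 2 allows). Within tumor 39 the share was lower for Lsd1 by 29.6 points and within tumor 41 it was higher by 14.8 points, so that the direction turned between the tumors. Paired by tumor, an exact sign-flip permutation test gave p = 1.0, with 0.5 as the smallest possible value.

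The strength of the peaks turned in the same way. Of the 35 genes with a peak in all 4 libraries, 4 had a higher percentile for Lsd1 than for Gfi1 in tumor 39 (11.4%, against 29.0% of protein-coding genes with a peak in all 4), namely Wnt5b, Apc2, Gsk3a and Gsk3b, and 30 had it in tumor 41 (85.7%, against 70.7%). In both tumors Lsd1 was higher at 1 gene, Wnt5b (2.86%, against 19.8%), with 75.8 against 70.4 in tumor 39 and 56.4 against 38.4 in tumor 41. The Wnt5b peaks used in tumor 41 were at different sites, however, chr6:119467044-119468694 for Gfi1 and chr6:119447655-119449539 for Lsd1. The values of that tumor thus do not compare the factors at one promoter. In both tumors Gfi1 was higher at Wnt1 and Dvl2 (5.71%, against 20.1%). These counts take the tumor numbers of the labels as they stand. With the tumors crossed, Lsd1 was higher in both pairs at 9 genes and Gfi1 at 5, with no share over all protein-coding genes computed. The paper states that each tumor was used for both factors, and the peak lists alone cannot check the numbers. At Wnt1 the differences within a tumor were -10.2 and -5.40 in percentile. At Dvl2 the percentiles were 98.8 (Gfi1) and 98.7 (Lsd1) in tumor 39, and 98.4 and 97.4 in tumor 41, so that in tumor 39 the Gfi1 value stood at the limit set by the ties, as it also did at Gsk3b.

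**Figure D5:**
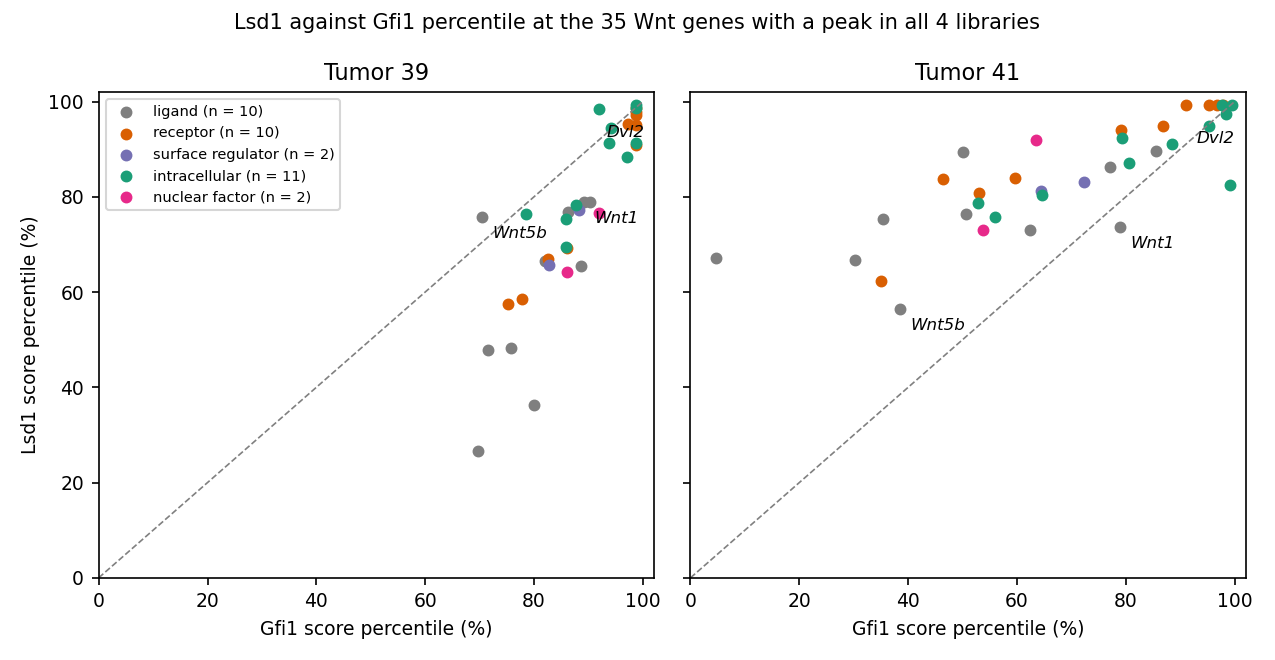
Lsd1 percentile (y axis, %) against Gfi1 percentile (x axis, %) in tumor 39 (left) and tumor 41 (right) for the 35 genes with a peak in all 4 libraries, coloured by role, with the dashed line marking equal values. In tumor 39, 4 of 35 genes lie above the line and in tumor 41, 30 of 35, and Wnt5b is the 1 gene above it in both. For Wnt5b in tumor 41 the Gfi1 and Lsd1 values come from peaks at different sites.

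The libraries paired by reach across factor and tumor. Gfi1 in tumor 39 and Lsd1 in tumor 41 gave the same call, peak or none, at 48 of 54 genes, and Gfi1 in tumor 41 and Lsd1 in tumor 39 at 50, whereas the 2 Gfi1 libraries did so at 40 and the 2 Lsd1 libraries at 44. Gfi1 in tumor 41 held the lowest percentile at 23 of the 35 genes with a peak in every library (65.7%, against 51.0% of the 11653 protein-coding genes) and Gfi1 in tumor 39 the highest at 19 (54.3%, against 50.6%). The same agreement of calls over all protein-coding genes was not computed, so that the pairing cannot be called particular to these genes. The part of library quality in this pattern was not tested.

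A further 54 genes of the pathway, listed by role with earlier results of these data known, showed a similar picture. A peak in all 4 libraries was present at 36 of them (66.7%, against 53.1% of protein-coding genes), and high-confidence sites of both factors at 12 (22.2%, against 19.5%). Intracellular and nuclear genes exceeded secreted and surface genes in share by 21.3 points ± 5.56 (SD, 4 libraries) and in median percentile by 19.7 ± 4.99. The gap in share lay mostly with secreted genes, as the mean share was 35.0% for 5 agonists and 53.6% for 7 secreted inhibitors. It was 89.6% for 12 surface genes, 91.7% for 15 intracellular genes and 89.6% for 12 nuclear genes. High-confidence sites of both factors stood at 4 of the 12 surface genes, Celsr1, Celsr3 and Vangl2 among them. The strongest were Tle3, with 98.8, 99.9, 99.8 and 99.3, and Tle1, with 98.8, 99.4, 97.8 and 99.3, both Groucho corepressors that bind Tcf, and Csnk1g2, a casein kinase, with 97.3, 99.6, 99.4 and 99.3. At the other end, the agonists Rspo4 and Ndp and the inhibitors Dkk2 and Dkk4 had no peak in any library. Wif1, an inhibitor that binds Wnt ligands, was the strongest secreted factor, with 89.1, 86.9, 81.6 and 78.9 and a high-confidence site for Gfi1.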

How the data were processed

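Gfi1 and Lsd1 ChIP-seq peaks of 2 MG tumors were analysed. The authors aligned reads to mm10 with BWA 0.6.2, discarded duplicates and ran MACS with default settings against input, library by library; the MACS version is not given in the sources used here. The deposited score of each peak is 50.0 or more and has no stated definition, so that it was used only as a percentile within its list, with scores of 3100 or more treated as ties. TSSs came from GENCODE M21 (GRCm38, the build of mm10). A gene had a peak when one came within 1000 bp of any TSS, and its highest-scoring peak was used. Shares over all protein-coding genes beside some counts were added after the data had been seen. The CpG ratio was taken over 500 bp each way from every TSS, and the highest value was kept.

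The members, lists and genes named (the 3 strongest of each role, genes with a high-confidence peak, genes in 0 to 3 libraries and genes that differed between factors in both tumors) were chosen with earlier results of these data known. Same-numbered libraries came from 1 tumor, and were therefore paired. Their deviations from the factor means correlated at -0.335 over 11653 genes. Error is the SD over libraries, and p-values measure only the spread between these tumors. Peak assignment was checked on simulated data, where all 200 calls were right in each of 4 libraries. Alternatives varied the TSS window and set, score cutoff, overlap, gene classes, peak choice and libraries. Python 3.11.15, numpy 2.4.6, scipy 1.17.1 and matplotlib 3.10.9 were used.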

Additional observations from a re-analysis of the deposited data

How the results depend on the processing

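TSS windows of 500 bp, 2 kb and 5 kb, a peak over a TSS, other TSS sets and equal list lengths (added after the data had been seen) kept every count of genes with a peak within 1.5 times its value. In the upper 20% of the score, the counts were 28, 13, 13 and 24 in the 4 libraries (Gfi1 in tumors 39 and 41, then Lsd1) and 11 in all 4. Leaving out a library gave 35 to 37 genes with a peak in each of the rest. The difference in share between intracellular genes and ligands with receptors was 31.8 points in the upper 20% and 3.33 against receptors alone, and 12.8 to 20.2 without 1 library. The difference in median percentile was 23.0 with genes lacking a peak set to 0, 11.6 where a peak had to cover a TSS, 23.5 against ligands alone, -7.40 against Frizzled genes alone (the last pair added later) and 15.2 to 18.2 without 1 library. High-confidence genes numbered 37 for Gfi1 and 36 for Lsd1 with no score cutoff and 28 for Lsd1 in the upper 40%. Taking the upper 20% of 1 library alone gave 13 to 28 for Gfi1, with 28 in tumor 39, and 13 to 24 for Lsd1, with 24 in tumor 41.

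With the replicate block, the difference in share between Lsd1 and Gfi1 was -7.41 points (exact permutation p = 1.0), as without it. Leaving out a library gave -20.4 to 5.56 points, and the sign turned to 5.56 without Gfi1 in tumor 39 and to 1.85 without Lsd1 in tumor 39. With tumors crossed, 9 genes were ranked higher for Lsd1 and 5 for Gfi1 in both pairs, against 1 and 2, and the crossed block gave p = 0.5 by exact permutation, the smallest value possible. A margin of 5 in percentile left 1 of the 2 genes higher for Gfi1, Wnt1. Without read counts in the files, a gene without a peak may lie under the detection limit of its library.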
